A study of Mus musculus with 12 samples.

Results

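The genes described here encode the presynaptic release machinery and the enzymes and transporter that make GABA and load it into vesicles. They were taken by name from a list of 40 genes covering calcium sensors, SNARE proteins and their regulators, vesicle proteins, active zone proteins and GABA synthesis. That list was chosen with earlier results of these data known, so its counts beside those of all probe sets describe it and do not test it. All 40 were found among the 25428 probe sets of the array table, with 1 probe set per gene. Striatal tissue of mouse embryos on the C57BL/6J background was dissected at embryonic day 18.5, and each of 12 embryos gave 1 array. The 6 wild-type (WT) embryos were compared with 6 embryos labelled Nestin-Cre (Foxp1-/-), called cKO here, in which the transcription factor gene Foxp1 was deleted. The Nestin promoter drives Cre in neural progenitors, so Cre is not specific to striatal projection neurons. The labels do not say whether the WT embryos carried Cre or a floxed allele, and they give no sex.

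At a synapse, vesicles filled with transmitter dock at the active zone, a protein scaffold at the presynaptic membrane. The SNARE proteins of vesicle and membrane pull the membranes together, Munc13 and RIM proteins prepare the vesicles, and synaptotagmins trigger fusion when calcium enters. Striatal projection neurons are GABAergic: glutamate decarboxylase makes GABA from glutamate and a vesicular transporter loads it. At this embryonic age striatal neurons are still forming their synapses.

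All levels are RMA log2 expression values as deposited, and a change is the cKO mean less the WT mean on that scale, given with the standard error (SE) from limma. A gene is said to have risen or fallen where limma's p, adjusted by Benjamini-Hochberg over all 25428 probe sets, was under 0.05. RMA gives all arrays a shared distribution, so a change common to all genes would not be seen, and levels of different probe sets are not compared with each other. Tissue pieces were measured, so fewer cells of a type and less RNA per cell cannot be told apart.

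Foxp1 itself averaged 11.14 in WT and 10.23 in cKO (limma adjusted p = 0.000170). Marker lists covered cell types within and outside the striatum, and Y-linked genes. The mean level of 14 striatal projection neuron genes was 9.21 to 9.48 in WT arrays and 9.03 to 9.22 in cKO arrays, and 3 of the 14 fell (Foxp1, Ikzf1 and Pde10a). Foxp1, the deleted gene, is itself in that list and in its mean. Changes in the list were negative for 9 genes and positive for 5. Limma's unadjusted p was under 0.05 for 7 of the 9 and for 2 of the 5. Those 2 were Penk (0.38, limma adjusted p = 0.0501) and Foxp2 (0.11). All 14 averaged above the median of all values, 5.71. The mean of 10 cortical glutamatergic genes was 6.09 to 6.44 in WT arrays and 6.08 to 6.63 in cKO arrays, with 10 of 10 changes positive and 0 of 10 past the threshold (2 at an unadjusted p under 0.05 in limma). Of the 10, 8 averaged above that median. Slc17a7, a vesicular glutamate transporter gene of the same list, read 5.53 to 5.60 in WT, below that median, and 5.53 to 5.95 in cKO. Of 11 progenitor and radial glia genes, 11 had a positive change, 4 with an unadjusted p under 0.05 and 0 past the threshold in limma, and their mean was 8.83 to 9.18 in WT arrays and 9.01 to 9.23 in cKO arrays. Of the other marker lists, the neurofilament gene Nefl among 10 general neuron genes fell by 0.76 (limma adjusted p = 0.0341), and Maf among 9 interneuron genes rose by 0.57 (adjusted p = 0.0150). Both lists held changes of either sign. In the general neuron list 6 were negative and 4 positive. Limma's unadjusted p was under 0.05 for 3 of the 6 and for 2 of the 4, Rbfox3 (0.19) and Dcx (0.08). In the interneuron list 6 were positive and 3 negative, and Maf alone reached that p. A fit with the level of 4 of the cortical genes as a covariate is given below for single release genes. The part of the other marker genes in the results on release genes was not tested. The array of cKO replicate 1 stood apart in Ttr, a choroid plexus gene, at 9.96 against 5.39 to 5.57 in the other 11 arrays. The mean of 3 Y-linked genes was 5.34 to 5.40 in WT replicates 3 and 4 and cKO replicates 2, 3 and 5. It was 7.32 to 7.71 in the other arrays, so both groups held arrays with low and with high Y-linked levels. 

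Of the 40 genes, 1 rose and 1 fell in the cKO striatum, against 0.299% of all probe sets called higher, 0.429% called lower and 0.728% called in either direction. Rph3a, which encodes the Rab3 effector rabphilin, was lower, and Stxbp5, which encodes the SNARE-binding protein tomosyn, was higher. These were also the 2 genes of the list whose WT and cKO arrays did not overlap, which held for 1.38% of all probe sets (0.562% higher and 0.822% lower). For the other 38 genes the 95% interval of the change lay wholly within 1.3-fold in either direction, and for all 40 it lay within 1.5-fold. Of all probe sets above the median level, 1.34% were called, and 39 of the 40 genes averaged above that level.

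**Figure D1:**
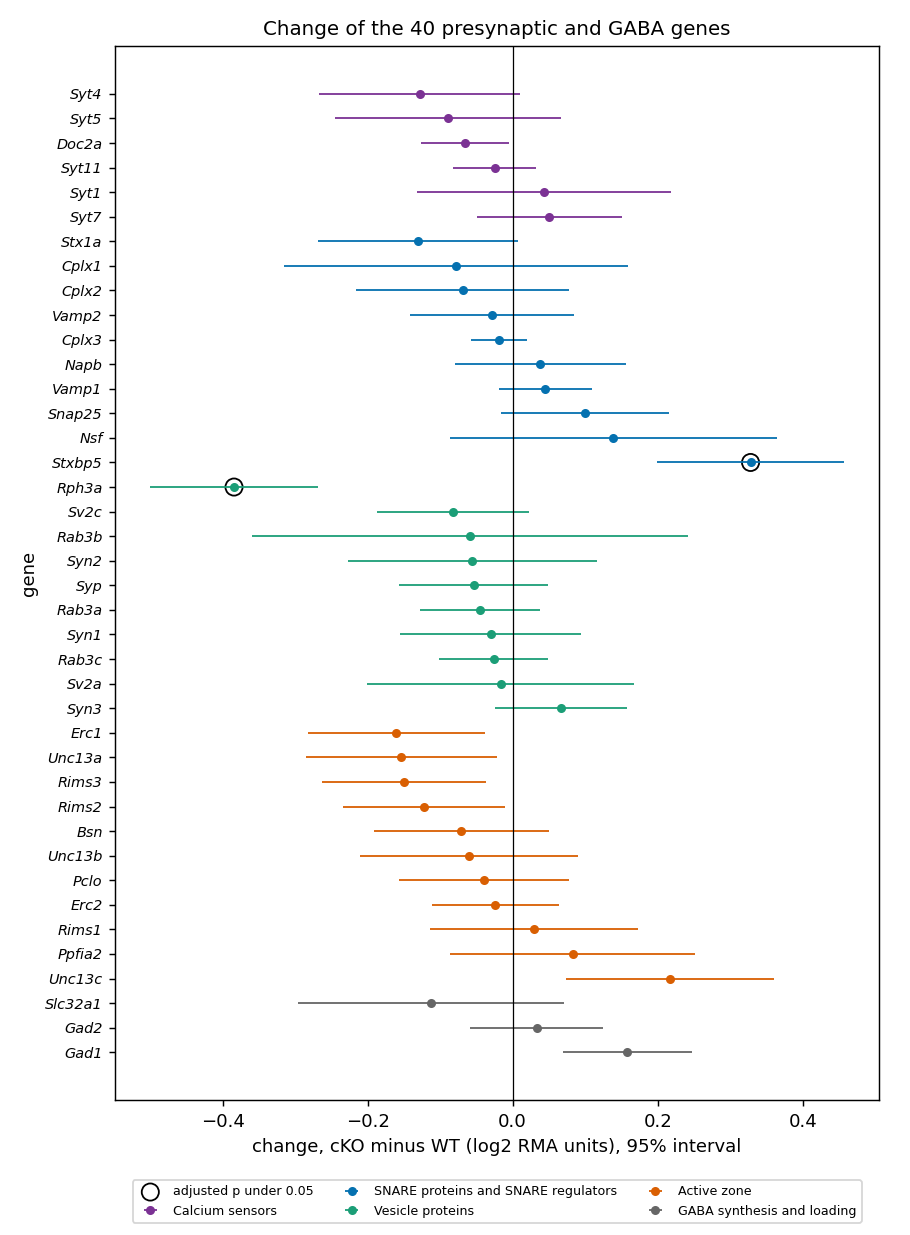
Change of each of the 40 genes (cKO minus WT, log2 units, horizontal axis) with its 95% interval, coloured by role; circles mark an adjusted p under 0.05. Rph3a at -0.38 and Stxbp5 at 0.33 are the circled genes, and the other points lie between -0.16 and 0.16 except Unc13c at 0.22.

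Rph3a encodes a vesicle protein that binds GTP-loaded Rab3 and, through its C2 domains, calcium and membrane lipids. It read 8.46, 8.58, 8.52, 8.72, 8.56 and 8.68 in WT replicates 1 to 6. In cKO replicates 1 to 6 it read 8.31, 8.08, 8.31, 8.24, 8.17 and 8.11. Every cKO array lay below every WT array. The mean fell from 8.59 ± 0.10 (SD, n = 6) to 8.20 ± 0.10 (SD, n = 6), a change of -0.38 ± 0.05 (SE) or 1.31-fold (limma adjusted p = 0.00721). The mean of the projection neuron list was 9.38 ± 0.12 (SD, n = 6) in WT and 9.15 ± 0.07 in cKO, and its part in this result was not tested. With the level of 4 cortical genes (Neurod6, Neurod2, Neurod1 and Tbr1) as a covariate the change was -0.35 (adjusted p = 0.0604), and without cKO replicate 1, the array with high Ttr, it was -0.41 (adjusted p = 0.0103).

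The sequence upstream of all annotated starts of Rph3a is shown because it is the gene of the list with the smallest p. It holds 226 bases of GRCm38.p6, chr5:121010117-121010342 on the minus strand, from RefSeq, with CpG dinucleotides in capitals. The upstream stretch of Syn1, 250 bases at chrX:20920919-20921168 on the minus strand of the same build, is set beside it because it held the full cAMP response sequence, shown in capitals.
Rph3a: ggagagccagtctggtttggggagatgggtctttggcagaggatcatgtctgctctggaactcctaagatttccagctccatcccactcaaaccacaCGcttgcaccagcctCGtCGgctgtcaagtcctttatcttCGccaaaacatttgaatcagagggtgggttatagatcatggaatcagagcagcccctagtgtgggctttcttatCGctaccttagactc
Syn1: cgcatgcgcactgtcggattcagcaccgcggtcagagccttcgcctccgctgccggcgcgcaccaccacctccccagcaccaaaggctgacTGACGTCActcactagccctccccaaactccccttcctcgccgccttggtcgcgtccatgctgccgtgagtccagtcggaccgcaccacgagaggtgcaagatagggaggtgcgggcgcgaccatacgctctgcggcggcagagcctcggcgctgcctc
The Rph3a stretch held 5 CpG and was 50.9% G or C, while the Syn1 stretch held 27 CpG and was 68.0% G or C. The Rph3a stretch does not stand for all starts of that gene. Windows of 300 bases at Rph3a starts held 5, 16 and 7 CpG and were 55.7%, 63.0% and 49.3% G or C.

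A RefSeq promoter window of 300 bases, 250 before and 50 after a start, was at hand for 32 of the 40 genes, in 37 windows. The windows had a median of 18 CpG, against 7 over all 32851 windows. The forkhead sequence TGTTTAC, searched on both strands, was in the windows of 0 of the 32 genes and in those of 4.05% of all 27025 genes. Its variant TATTTAC was in 0 of the 32 and in 3.51% of all genes. The cAMP response sequence TGACGTCA was in 1 of the 32, Syn1, and in 2.03% of all genes. No match says only that these letters are not in these windows.

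Among the vesicle proteins, Rph3a was the only member of 10 that passed the threshold, and 9 of the 10 changes were negative. The Rab3 GTPases recruit rabphilin to vesicles. The change was -0.05 ± 0.04 for Rab3a (limma adjusted p = 0.731), -0.06 ± 0.14 for Rab3b (0.920) and -0.03 ± 0.03 for Rab3c (0.843). Rab3a read 10.94 in WT replicate 3 and 10.72 to 10.78 in the other WT arrays, against 10.67 to 10.79 in cKO, so the groups overlapped. The synapsins tether vesicles to each other and to actin, and changed by -0.03 (Syn1), -0.06 (Syn2) and 0.07 (Syn3), each with a 95% interval that includes 0. Synaptophysin (Syp), an abundant membrane protein of the vesicle, averaged 10.16 in WT and 10.10 in cKO, a change of -0.05 ± 0.05. The SV2 glycoproteins changed by -0.02 ± 0.08 (Sv2a) and -0.08 ± 0.05 (Sv2c).

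Stxbp5 was the only riser. Tomosyn carries a SNARE motif of its own and competes with the vesicle SNARE for syntaxin and SNAP25, which holds back priming. Its level was 8.996, 8.84, 8.83, 8.91, 8.86 and 8.64 in WT replicates 1 to 6. In cKO replicates 1 to 6 it was 9.10, 9.06, 9.27, 9.09, 9.25 and 9.28. The lowest cKO array lay above the highest WT array. The mean rose from 8.85 ± 0.12 (SD, n = 6) to 9.18 ± 0.10 (SD, n = 6), a change of 0.33 ± 0.06 (SE) or 1.26-fold (limma adjusted p = 0.0292). Of 20 alternatives (other scalings, priors, covariates or sets of arrays, the fit blocked on replicate number not counted), the call passed in 11, and the change stayed between 0.27 and 0.36 in all 20. It was lost without WT replicate 2, 3 or 5 (adjusted p = 0.0635, 0.0556 and 0.0539), when cKO replicate 3, 5 or 6 was left out (0.0763, 0.0829 and 0.0709), with neither WT replicate 3 nor 6 (0.0774), when the level of Y-linked genes entered as a covariate (0.0517) and likewise with the cortical level (0.134).

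Neither of the membrane SNARE genes, Snap25 and Stx1a, passed. Snap25, the membrane SNARE with a pair of helices, averaged 11.45 ± 0.12 (SD, n = 6) in WT and 11.55 ± 0.07 in cKO, a change of 0.10 ± 0.05 (limma adjusted p = 0.541). Stx1a, its syntaxin partner, changed by -0.13 ± 0.06 (adjusted p = 0.501), with WT arrays from 8.17 to 8.61 and cKO arrays from 8.11 to 8.28. The vesicle SNARE genes Vamp2 and Vamp1 changed by -0.03 ± 0.05 and 0.05 ± 0.03. Nsf and Napb encode the ATPase and an adaptor that take used SNARE complexes apart, and changed by 0.14 ± 0.10 and 0.04 ± 0.05. The complexins clamp and promote fusion on the assembled SNAREs; the change was -0.08 ± 0.11 for Cplx1, -0.07 ± 0.07 for Cplx2 and -0.02 ± 0.02 for Cplx3. Cplx1 read 8.78 in WT replicate 3 and 8.04 to 8.24 in the other WT arrays, and without that array its change was 0.03 ± 0.05. Cplx3 and Vamp1 lay within 0.2 of the median of all values, where RMA compresses differences.

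Of the 6 calcium sensor genes, 0 passed over all probe sets, and 1, Doc2a, had an unadjusted p under 0.05. Syt1, the fast calcium sensor of release, read 10.33 to 10.80 in WT and 10.39 to 10.66 in cKO, a change of 0.04 ± 0.08 (limma adjusted p = 0.898). Syt7, a slow high-affinity sensor, changed by 0.05 ± 0.05, and Syt5 by -0.09 ± 0.07. Syt4 and Syt11, which are synaptotagmins with impaired calcium binding, changed by -0.13 ± 0.06 (adjusted p = 0.510) and -0.03 ± 0.03. Syt5 read 11.27 in WT replicate 3 against 10.89 to 10.99 in the other WT arrays, and without that array its change was -0.03 ± 0.05. Doc2a, a sensor of asynchronous and spontaneous release, read 5.95, 5.79, 5.93, 5.87, 5.85 and 5.83 in WT and 5.78, 5.85, 5.76, 5.86, 5.80 and 5.77 in cKO replicates 1 to 6. The groups overlapped close to the median of all values, and the change was -0.07 ± 0.03 (adjusted p = 0.407).

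**Figure D2:**
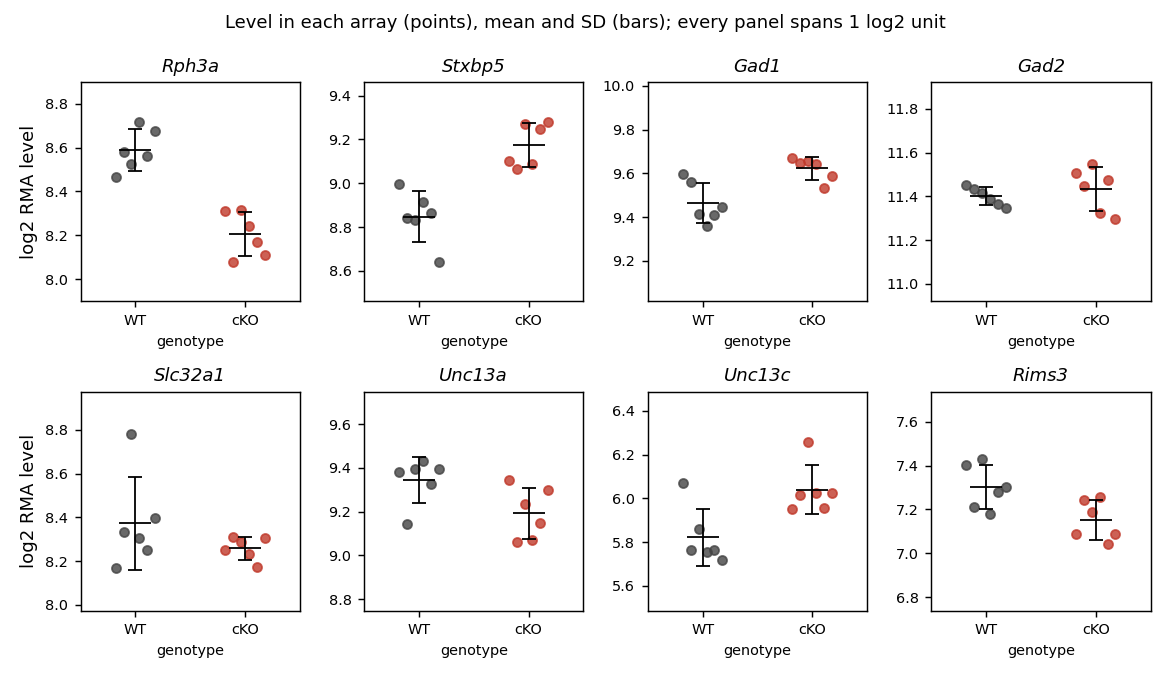
Log2 RMA level (vertical axis, each panel spanning 1 unit) of 8 genes in the 6 WT and 6 cKO arrays, with mean and SD. The groups are apart for Rph3a and Stxbp5 and overlap in the other 6 panels, with WT replicate 3 at 8.78 in the Slc32a1 panel.

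The active zone list had no gene past the threshold over all probe sets, and 8 of its 11 changes were negative. At an unadjusted p under 0.05 in limma there were 4 lower genes (Erc1, Rims3, Unc13a and Rims2) and 1 higher (Unc13c). Over the whole list of 40 genes the counts at that level were 6 lower and 3 higher, or 15% and 7.5%, against 5.67% and 5.06% of all probe sets. Among probe sets above the median level the shares were 8.32% lower and 7.39% higher. The median change of the 40 genes was -0.035, against -0.00077 over all probe sets, and 27 of the 40 changes were negative, as were 13027 of the 25428 over all probe sets. Single arrays moved that median: it was -0.013 when WT replicate 3 was left out, -0.020 when cKO replicate 5 was, and -0.056 when WT replicate 2 was.

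Unc13a encodes Munc13-1, which opens syntaxin and is needed to prime vesicles at most central synapses. It read 9.38, 9.14, 9.39, 9.43, 9.33 and 9.40 in WT and 9.34, 9.06, 9.23, 9.07, 9.15 and 9.30 in cKO replicates 1 to 6. The groups overlapped, WT replicate 2 being low among the WT arrays, and the change was -0.15 ± 0.06 (limma adjusted p = 0.366). Unc13b, its relative Munc13-2, changed by -0.06 ± 0.07 (adjusted p = 0.809), and by -0.11 ± 0.05 without WT replicate 3.

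Unc13c, which encodes Munc13-3, known best from the cerebellum, was close to the median of all values in WT. Its WT replicates 1 to 6 read 6.07, 5.76, 5.86, 5.75, 5.77 and 5.72, and its cKO replicates 5.95, 6.02, 6.26, 6.02, 5.96 and 6.03. WT replicate 1 alone overlapped the cKO arrays. The change was 0.22 ± 0.07 (limma adjusted p = 0.214). It passed in 1 of the 20 alternatives, the one without that array (0.27, adjusted p = 0.0407).

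The RIM proteins link Rab3, Munc13 and calcium channels. Rims3, a short form, read 7.41, 7.21, 7.43, 7.18, 7.28 and 7.30 in WT and 7.09, 7.24, 7.19, 7.26, 7.04 and 7.09 in cKO replicates 1 to 6, overlapping between 7.18 and 7.26. Its change was -0.15 ± 0.05 (limma adjusted p = 0.292). Rims2 read 7.97, 7.99, 7.80, 7.93, 7.98 and 8.21 in WT and 7.88, 7.86, 7.87, 7.83, 7.81 and 7.89 in cKO. Its 6 cKO arrays lay within a narrow band that WT replicate 3 undercut, and the change was -0.12 ± 0.05 (adjusted p = 0.402). It passed in 1 of the 20 alternatives, with both WT replicate 3 and WT replicate 6, the ends of its WT range, left out (-0.11, adjusted p = 0.0390), while without WT replicate 6 alone the change was -0.08 (adjusted p = 0.477). Rims1 changed by 0.03 ± 0.07.

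Erc1 and Erc2 encode ELKS/CAST scaffold proteins that bind RIM, bassoon and piccolo. Erc1 read 9.07, 8.99, 8.90, 8.79, 8.86 and 8.98 in WT and 8.78, 8.65, 8.71, 8.94, 8.85 and 8.71 in cKO replicates 1 to 6. The groups overlapped between 8.79 and 8.94, and the change was -0.16 ± 0.06 (limma adjusted p = 0.294). Erc2 changed by -0.02 ± 0.04. Bassoon (Bsn) and piccolo (Pclo), the giant scaffolds of the active zone, changed by -0.07 ± 0.06 and -0.04 ± 0.05, and liprin-alpha-2 (Ppfia2), which helps to recruit RIM, by 0.08 ± 0.08.

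GABA synthesis was measured through Gad1 and Gad2, the glutamate decarboxylase genes, and Slc32a1, the vesicular GABA transporter gene. None of the 3 passed over all probe sets in limma, and 1, Gad1, had an unadjusted p under 0.05. Gad1 read 9.60, 9.56, 9.42, 9.36, 9.41 and 9.45 in WT and 9.67, 9.65, 9.66, 9.64, 9.54 and 9.59 in cKO replicates 1 to 6. The overlap came from WT replicates 1 and 2, and the change was 0.16 ± 0.04 (adjusted p = 0.128). It passed in 1 of the 20 alternatives, the one without WT replicate 1 (0.18, adjusted p = 0.0444). Gad2 read 11.35 to 11.45 in WT and 11.30 to 11.55 in cKO, a change of 0.03 ± 0.04 with a 95% interval from -0.06 to 0.13. Slc32a1 read 8.17, 8.33, 8.78, 8.31, 8.25 and 8.40 in WT and 8.25, 8.31, 8.29, 8.23, 8.17 and 8.31 in cKO. WT replicate 3 was high, the other WT arrays lay around the cKO range, and the change was -0.11 ± 0.08 (adjusted p = 0.686), or -0.03 ± 0.04 without that array.

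Whether related genes changed unequally was tested in 12 pairs, through the log2 ratio of both genes within each array. An exact permutation test, two-sided and with every way of splitting the 12 arrays into 6 and 6, adjusted over the 12 pairs, called 0 pairs, and 1 pair had an unadjusted p under 0.05. That pair was Gad1 over Gad2, whose ratio was higher in cKO by 0.12 (exact permutation p = 0.0325, adjusted p = 0.312). Its log2 ratio was -2.03 to -1.86 in WT and -1.94 to -1.68 in cKO, and the groups overlapped. The ratio of Rims1 to Rims2 was higher by 0.15 (p = 0.104 in the exact test), that of Syt1 to Syt5 higher by 0.13 (p = 0.0931 in the exact test), and that of Erc1 to Erc2 was lower, at -0.14 (p = 0.0952 in the exact test). For the other 8 pairs the exact p ran from 0.212 to 0.952.

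**Figure D3:**
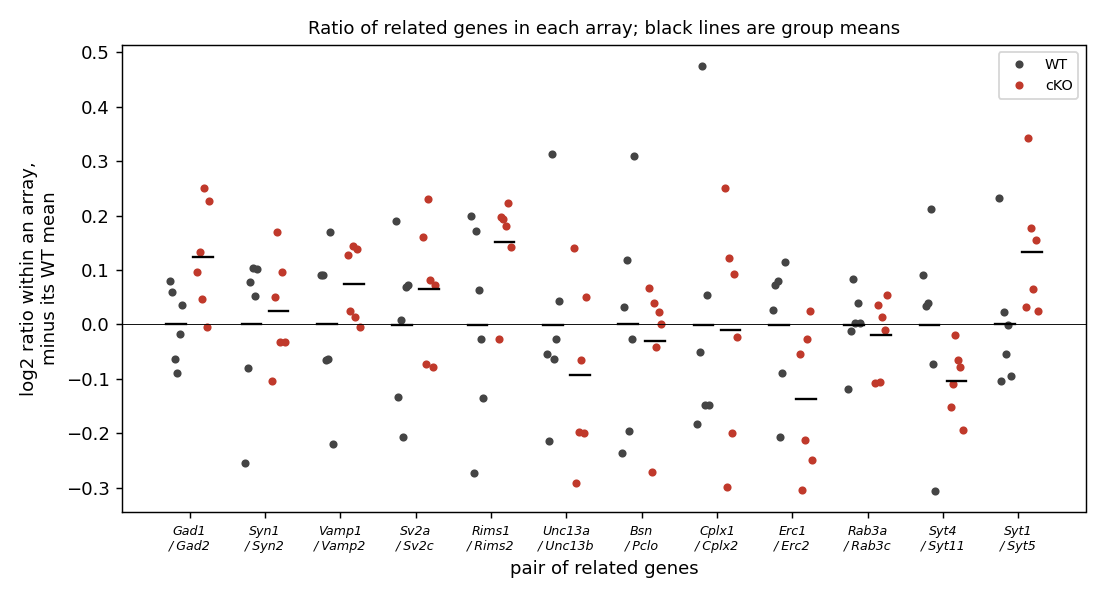
Log2 ratio of related genes within each array, minus the WT mean of the ratio (vertical axis), for 12 pairs; points are the 6 WT and 6 cKO arrays and black lines group means. The WT and cKO points overlap in every pair, including Gad1 over Gad2, whose cKO mean lies 0.12 above that of WT.

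The 40 genes also varied within groups. The SD was larger in WT than in cKO for 33 of the 40, against 59.7% of all probe sets, with a median SD of 0.12 in WT and 0.08 in cKO. Of the 12 arrays, WT replicate 1 gave the highest value for 13 genes and WT replicate 3 for 10, while WT replicate 3 also gave the lowest for 7. The median difference from the WT mean was 0.09 in WT replicate 1 and -0.09 in cKO replicate 1, the ends of the range. On the same arrays the mean of 10 general neuron genes was 10.24 and 10.25 in WT replicates 1 and 3, and 10.05 to 10.13 in the other 10. Nefl, which fell in cKO, is in that mean. It read 9.09 and 9.57 in WT replicates 1 and 3, and 8.04 to 8.88 in the other 10. The part of neuronal content in the variation of the 40 genes was not tested.

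**Figure D4:**
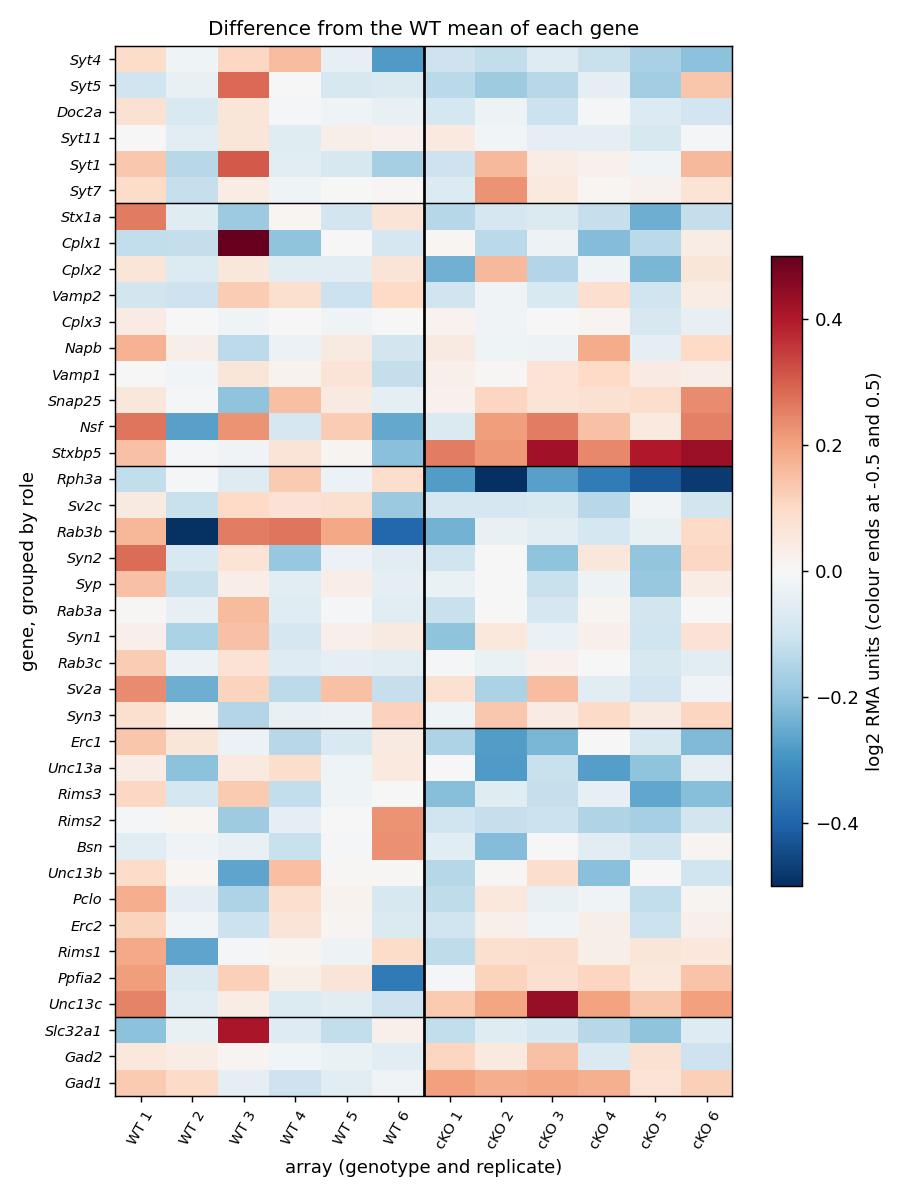
Difference of each array (columns, 6 WT and 6 cKO) from the WT mean of each of the 40 genes (rows, grouped by role), in log2 units with colours ending at -0.5 and 0.5. Rph3a is blue and Stxbp5 red across all 6 cKO columns, and WT replicate 3 holds the single darkest values of Cplx1 and Slc32a1.

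Other genes of vesicle release, vesicle recycling and GABA handling came from 7 lists of 96 genes, of which 90 were analysed here. Of these 90, 0 rose and 1 fell in limma over all probe sets, while 8 lower and 0 higher genes had an unadjusted p under 0.05. Of the 90 genes 76 lay above the median level. Among all probe sets above that level, 8.32% were lower and 7.39% higher at that p, and 1.34% passed the threshold in either direction. The counts of lower genes and of calls were near these shares, while the count of 0 higher genes lay below its share. That difference was not tested. The gene that fell was Synpr, which encodes synaptoporin, a vesicle protein related to synaptophysin. It read 6.71, 6.57, 6.73, 6.90, 6.68 and 6.71 in WT and 6.32, 6.38, 6.41, 6.38, 6.35 and 6.47 in cKO replicates 1 to 6. Every cKO array lay below every WT array, and the change was -0.33 ± 0.05 (SE) or 1.26-fold (limma adjusted p = 0.00662).

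In the list of other SNARE and SM proteins 0 of 21 genes passed, and the smallest p belonged to Stx3, an ubiquitous syntaxin (-0.14 ± 0.03, limma adjusted p = 0.0601), and Snap29 (-0.10 ± 0.02, adjusted p = 0.0946). The Snap29 groups did not overlap, by a narrow margin, with cKO arrays up to 7.207 and WT arrays from 7.212. Of the 90 genes, 2 were lower without overlap and 0 higher, against 0.822% and 0.562% of all probe sets. Of the same 20 alternatives, Stx3 passed in 2, without WT replicate 2 (adjusted p = 0.0495) or cKO replicate 4 (adjusted p = 0.0488). Among 13 other calcium sensors 0 passed, with values of -0.25 ± 0.07 for Syt6 (adjusted p = 0.190) and -0.14 ± 0.05 for Doc2b (adjusted p = 0.255). Among 15 other vesicle proteins Synpr was the only call. Among 13 other active zone genes the smallest p belonged to Lin7a (-0.16, adjusted p = 0.412) and Lin7b (-0.07, adjusted p = 0.527).

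Of 14 endocytosis genes 0 passed, with values of -0.18 ± 0.04 for the scaffold gene Itsn2 (limma adjusted p = 0.0991) and -0.07 ± 0.03 for the lipid phosphatase gene Synj1 (adjusted p = 0.476). Of 7 other vesicular transporter genes 0 passed, with 0.19 ± 0.09 for the monoamine transporter gene Slc18a2 (adjusted p = 0.489) and -0.02 ± 0.01 for Slc18a1 (adjusted p = 0.513). Of 7 genes of GABA uptake and breakdown 0 passed, with 0.02 ± 0.01 for the GABA transporter gene Slc6a13 (adjusted p = 0.591) and 0.09 ± 0.06 for Aldh5a1 (adjusted p = 0.680), which completes GABA breakdown. The median change of the 90 genes was -0.0014.

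**Figure D5:**
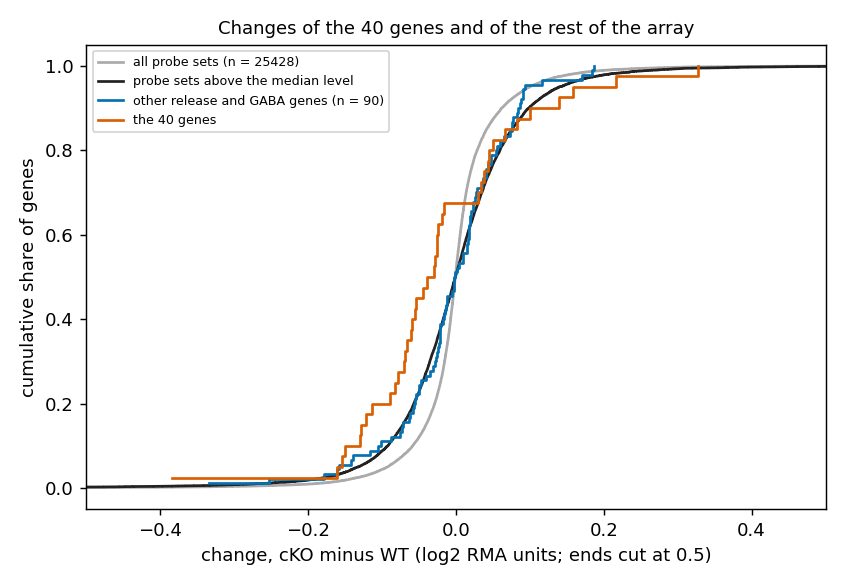
Cumulative share of genes (vertical axis) by change in log2 units (horizontal axis) for all 25428 probe sets, those above the median level, the 90 other release and GABA genes and the 40 genes. The line of the 40 genes crosses its midpoint at -0.035 and those of the other sets near 0.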

How the data were processed

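Expression was measured with 1-colour arrays of biotin-labelled total RNA from 12 embryonic striata, 6 WT and 6 cKO. The authors deposited log2 expression values made with RMA, per the submitters' processing notes; the RMA version, array model and probe definitions are not given in the sources used here. Depth does not apply to arrays, and their number limits the precision. The columns share a distribution to within 0.000977 log2 units in the 11 arrays other than cKO replicate 1. Symbols were taken from the annotation of the platform for 24674 probe sets and brought up to date by gene identifier with the RefSeq table of GRCm38.p6; rows without a symbol stayed unnamed, and 6 listed pathway genes were not analysed here.

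Groups were fitted with limma 3.58.1 in R 4.3.3 (lmFit, eBayes) over all 12 arrays without covariates, on the deposited values. Tests were two-sided. The fit was also run on simulated data with independent noise for each gene, and no result here rests on that run. The members and lists were chosen with earlier results of these data known. All members are named; values per array are given for members past the threshold, with groups that do not overlap, or with an unadjusted p under 0.05. From other lists, the genes past the threshold or the 2 with the smallest p are named. Alternatives were renormalization, a level filter, other priors, weights, covariates, a replicate block and leaving out arrays.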

Additional observations from a re-analysis of the deposited data

Results flagged for a closer look

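For 10 of 82 groups of 6 arrays (41 genes in 2 groups), the highest or lowest array stood far from the nearest other array of its group, where chance gives about 1 in 20. WT replicate 3 held 5 of the 10. It was high for Cplx1 (8.78, next 8.24), Rab3a (10.94, next 10.79), Slc32a1 (8.78, next 8.40) and Syt5 (11.27, next 10.99), and low for Unc13b (7.68, next 7.96). WT replicate 6 was high for Bsn (6.82, next 6.58). WT replicate 1 was high for Cplx3 (5.76, next 5.72), and WT replicate 2 low for Unc13a (9.14, next 9.33). Among cKO arrays, replicate 1 was low for Rims1 (8.19, next 8.35) and replicate 3 high for Unc13c (6.26, next 6.03). Neither Rph3a nor Stxbp5 had such an array.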

How the results depend on the processing

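Rph3a stayed lower in all 21 alternatives, with a change between -0.41 and -0.35, and passed in 19. Stxbp5 stayed higher in all 21 and passed in 11. The count of higher members was 0 with the replicate block, the Y-linked or the cortical covariate, without WT replicates 3 and 6, and at an adjusted p of 0.01. The count of lower members was 0 with the replicate block and the cortical covariate, and 2 without WT replicates 3 and 6. Leaving out each array gave 0 to 3 higher members (3 without WT replicate 1: Stxbp5, Unc13c and Gad1), 1 lower member throughout, 1 to 2 lower genes of the other lists and 106 to 227 calls over all probe sets, against 185. That total was 278 without dim probe sets, 64 with the replicate block, 50 with the cortical covariate and 61 at an adjusted p of 0.01. With the block, Rph3a, Stxbp5 and Synpr lost their calls (limma adjusted p = 0.0887, 0.179 and 0.0525) and Stx3 passed (adjusted p = 0.0349). Synpr passed in the other 20 alternatives. The replicate numbers do not pair the arrays: deviations of same-numbered arrays correlated at -0.221 to 0.155, and 0 of 6 WT arrays correlated best with their own number. For the 12 pairs of related genes the blocked exact test has a smallest possible p of 0.0313, so a single pair could not pass after adjustment over the 12, and its count of 0 shows nothing. The cause of these differences was not tested.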

Other observations

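Rab3b, which did not pass the threshold, fell into separate levels among the WT arrays. It read 6.28 and 6.39 in WT replicates 2 and 6, and 6.94, 7.04, 7.04 and 6.97 in WT replicates 1, 3, 4 and 5. The cKO arrays lay between these levels, from 6.54 to 6.88. Nsf was lowest in the same 2 WT arrays, at 8.49 and 8.51, with 8.68 to 9.03 in the other WT arrays and 8.69 to 9.02 in cKO. Rab3b and Nsf were singled out after their values were seen.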
